A study of Mus musculus with 15 samples.

Results

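The genes described here are those of disease-associated microglia and of phagocyte activation. The list has 41 gene symbols, and its members are the rows of the count table whose Ensembl ID maps to one of these symbols in the GENCODE mouse annotation. Of the 41 symbols, 40 matched a row among the 55471 gene IDs, and *Fth1-ps* did not. Of these 40 genes, 31 had more than 1 CPM (the count of a gene per 1000000 counted reads of its library) in at least 3 of the 15 libraries, among 16171 genes that passed this filter. The 9 members below it were *Cst7*, *Itgax*, *Clec7a*, *Lgals3*, *Cybb*, *Ccl2*, *Ccl3*, *Ccl4* and *Ccl12*. *Cd52* was below 1 CPM in the 3 WT libraries of batch 1 and above it in all libraries with mutant *App*. *Tlr2* was above 1 CPM only in replicates 1 and 3 of the double mutant (DM) and in WT replicate 1 of each batch. Both passed the filter only with mutant libraries, so that a gene of this level can pass because it is high in a mutant group. *Cd74* was also below 1 CPM in the WT libraries of batch 1, but above it in some WT and ApoE4 libraries of batch 2. Counts over the 31 are therefore given as a description.

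Microglia are the resident phagocytes of the brain. In a healthy brain they carry a set of homeostatic genes. Around amyloid plaques some of them lower these genes and raise others for phagocytosis, lysosomes and lipid handling, a state named disease-associated microglia. The receptor TREM2 binds lipids and lipoproteins, among them apolipoprotein E, and signals through the adaptor TYROBP, and mice without TREM2 do not develop the full form of this state.

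RNA came from the whole hippocampus of female mice aged 3 months, in 5 groups of 3 libraries. The first batch was made of WT mice (strain C57BL/6JInv), APP-TKI mice (App NL-G-F/NL-G-F, homozygous for familial mutations knocked into a humanized amyloid β region of the mouse *App* gene) and DM mice (the same homozygous App alleles with ApoE4+/wt, from a cross of both lines). Batch 2 held its own WT mice and ApoE4 mice (ApoE4+/wt, with 1 allele of human *APOE4* and 1 of mouse *Apoe*). Both mutant alleles are knock-ins at the endogenous mouse gene, and DM mice also keep 1 mouse *Apoe* allele. Each mutant group was compared with the WT libraries of its own batch, and the total count was 32754717 to 44630808 per library. The microglial markers *P2ry12* (1139 to 1539 counts), *Tmem119* (660 to 1007) and *Cx3cr1* (1588 to 2382) were present in all 15 libraries. In bulk tissue, a change in the number of microglia cannot be told apart from a change in the RNA of each cell. In batch 2 the summed level of 12 ependymal and choroid plexus markers was 1717 CPM in WT replicate 3 and 2011 CPM in ApoE4 replicate 1, against 92.3 to 157 CPM in the other 4 libraries.

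The stretches upstream of the transcription start are shown for the members with the largest differences in mice with mutant *App* (*Cst7*, *Itgax*, *Clec7a* and *Ccl6*) and for *Trem2*. Each has 150 bases, is written 5′ to 3′ on the strand of the gene, and comes from the RefSeq promoter windows of GRCm38.p6, in which 32 of the 41 members had an entry. Capitals mark a match on either strand to one of 4 motifs, the PU.1 core GAGGAA, the AP-1 site TGACTCA, the E-box TCACGTG of the MiT/TFE factors, and the pair of IRF half-sites (GAAA, any 2 bases, GAAA).
*Cst7* (chr2:150570265-150570414, plus strand): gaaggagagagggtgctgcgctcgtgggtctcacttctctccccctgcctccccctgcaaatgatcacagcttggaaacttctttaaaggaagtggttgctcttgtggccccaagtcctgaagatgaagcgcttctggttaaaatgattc
*Itgax* (chr7:128129397-128129546, plus strand): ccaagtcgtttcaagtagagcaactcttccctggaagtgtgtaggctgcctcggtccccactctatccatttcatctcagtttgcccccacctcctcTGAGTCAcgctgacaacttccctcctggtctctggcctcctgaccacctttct
*Clec7a* (chr6:129472786-129472935, minus strand): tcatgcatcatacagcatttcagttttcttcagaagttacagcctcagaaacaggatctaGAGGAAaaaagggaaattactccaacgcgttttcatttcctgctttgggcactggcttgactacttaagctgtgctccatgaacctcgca
*Ccl6* (chr11:83593088-83593237, minus strand): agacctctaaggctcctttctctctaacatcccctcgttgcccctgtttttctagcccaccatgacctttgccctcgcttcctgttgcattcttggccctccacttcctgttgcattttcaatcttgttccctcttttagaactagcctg
*Trem2* (chr17:48346251-48346400, plus strand): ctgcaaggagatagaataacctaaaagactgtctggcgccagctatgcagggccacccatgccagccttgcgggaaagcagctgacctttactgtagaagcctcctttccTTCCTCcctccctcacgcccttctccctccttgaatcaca

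PU.1 is the lineage factor of macrophages and microglia, AP-1 and IRF factors act in activated phagocytes, and MiT/TFE factors act on lysosomal genes. Over windows of 300 bases, from before to just after the start, GAGGAA stood in the promoter of 16 of the 32 members (50%), against 31.3% of 27025 genes with a promoter entry. TGACTCA stood in 5 members (15.6% against 5.95% of all genes), the IRF pair in 4 (12.5% against 3.99%) and TCACGTG in 0 (against 4.29%). Matches of GAGGAA and of the IRF pair can overlap by a few letters. The stretches of *Clec7a* and *Trem2* hold the PU.1 core and that of *Itgax* an AP-1 site, while those of *Cst7* and *Ccl6* hold none of the 4. A match is a run of letters only, and binding was not measured.

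The first question was which members differ in mice with mutant *App*. The 6 libraries of APP-TKI and DM mice were compared with the 3 WT libraries of batch 1, with the mean of both mutant groups set against WT. The largest rises were in 4 genes of low abundance. *Cst7*, *Itgax* and *Clec7a*, at the limit of detection in WT mice, were several-fold higher in both mutant groups, and *Ccl6* was 2.09-fold higher. The first 3 of these genes were below the main filter and were chosen for description after their values were seen. Their place at the top is therefore a description.

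*Cst7* (ENSMUSG00000068129, chr2:150570415-150578944 in GRCm38) encodes cystatin F, an inhibitor of lysosomal cathepsins and one of the hallmark genes of this state. It had 3, 1 and 6 counts in WT mice of batch 1, 14, 18 and 27 counts in APP-TKI mice and 38, 26 and 24 counts in DM mice. All 6 mutant libraries were above all 3 WT libraries. In CPM the means were 0.0938 ± 0.0665 in WT mice, 0.558 ± 0.171 in APP-TKI mice and 0.793 ± 0.171 in DM mice (SD, n = 3 each). In batch 2, *Cst7* had 2, 4 and 2 counts in WT mice and 6 counts in each ApoE4 library, which is 0.0696 ± 0.0289 against 0.144 ± 0.0120 CPM (SD, n = 3 each). The ApoE4 libraries were thus above their WT libraries by a few reads and below every *App* mutant library.

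*Itgax* (ENSMUSG00000030789, chr7:128129547-128150657) encodes the integrin αX chain CD11c, a surface marker of plaque-associated microglia and of dendritic cells. It had 5, 3 and 4 counts in WT mice of batch 1, 26, 31 and 31 counts in APP-TKI mice and 33, 13 and 10 counts in DM mice. APP-TKI libraries were close to each other, while DM replicate 1 was at their level and the other two DM libraries lay between them and WT. In batch 2 it had 19, 5 and 12 counts in WT mice and 12, 8 and 8 in ApoE4 mice. Those groups overlapped, and WT mice of batch 2 reached the counts of the lower DM libraries.

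*Clec7a* (ENSMUSG00000079293, chr6:129461591-129472779) encodes dectin-1, a receptor for β-glucans used as a marker of plaque-associated microglia, and the annotation used here lists it as a polymorphic pseudogene. It had 4, 7 and 10 counts in WT mice of batch 1, 34, 19 and 34 in APP-TKI mice and 32, 26 and 30 in DM mice. Again all 6 mutant libraries were above all 3 WT libraries. In batch 2 its counts were 17, 13 and 5 in WT mice and 17, 4 and 9 in ApoE4 mice, which overlapped.

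For genes below the filter, mean CPM of the 6 mutant and 3 WT libraries was compared with a two-sided exact permutation test over the 84 arrangements of the libraries, whose smallest p is 0.0238. *Cst7* (0.676 ± 0.199 against 0.0938 ± 0.0665 CPM), *Itgax* (0.668 ± 0.276 against 0.116 ± 0.0280 CPM) and *Clec7a* (0.812 ± 0.158 against 0.201 ± 0.0782 CPM, SD, n = 6 and 3) each reached this exact p of 0.0238. So did *Cybb*, the catalytic subunit of the phagocyte NADPH oxidase (0.607 ± 0.0692 against 0.464 ± 0.0270 CPM), and *Ccl12*, a monocyte chemoattractant (0.290 ± 0.0860 against 0.156 ± 0.0410 CPM). The exact p was 0.167 for *Lgals3*, 0.119 for *Ccl3*, 0.286 for *Ccl4* and 0.310 for *Ccl2*. These 9 exact p-values are not adjusted. The smallest p is reached by any gene whose mutant and WT libraries do not overlap, whatever the size of the difference. How many of all genes at this level reach it was not computed.

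The groups were also fitted with the quasi-likelihood test of edgeR over 19506 genes kept by the more permissive filterByExpr rule, which takes in 36 members. In mice with mutant *App* the log2 fold change against WT was 2.74 for *Cst7* (standard error, SE, 0.46, 95% interval 1.75 to 3.73, adjusted p = 0.135), 2.44 for *Itgax* (SE 0.46, adjusted p = 0.223) and 1.98 for *Clec7a* (SE 0.36, adjusted p = 0.180). *Cybb*, also in this set, had a log2 fold change of 0.38 (SE 0.26, unadjusted p = 0.175). *Ccl12* was not in this set, and without a filter the same test gave 0.85 (SE 0.55, unadjusted p = 0.121). Against the threshold of 0.1, adjusted over all genes tested, 0 of the 36 members were called, where 0.0256% of all genes were. Of the 36, 12 were higher at an unadjusted p under 0.05, against 2.94% of all genes. *Cst7*, *Itgax* and *Clec7a* passed this filter only through the mutant libraries, since 0 of the 3 WT libraries and 6 of the 6 mutant libraries reached its limit of 0.283 CPM for each gene. A gene kept in this way had to differ, so that these counts and the adjusted p-values of the 3 genes in this set are a description and no support for a difference.
With the same genes and the same limit, edgeR's robust likelihood ratio test called *Cst7* (adjusted p = 3.31e-06), *Clec7a* (8.31e-05), *Itgax* (0.000325), *Ccl6* and *Lyz2* (0.477% of all genes called), the Wald test of DESeq2 called *Cst7* (0.00337), *Clec7a* (0.0105), *Itgax* (0.0143) and *Ccl6* (0.200% of all genes), and the quasi-likelihood test with the replicate number as a block called *Cst7* (0.0712, with 0.0666% of all genes called). The log2 fold change was 2.74 to 2.78 for *Cst7* in these tests. For *Itgax* it was 2.32 by the robust likelihood ratio test and 2.46 by DESeq2. The calls depended on the test. All these tests use the same counts, so their likeness is no added support.

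**Figure D1:**
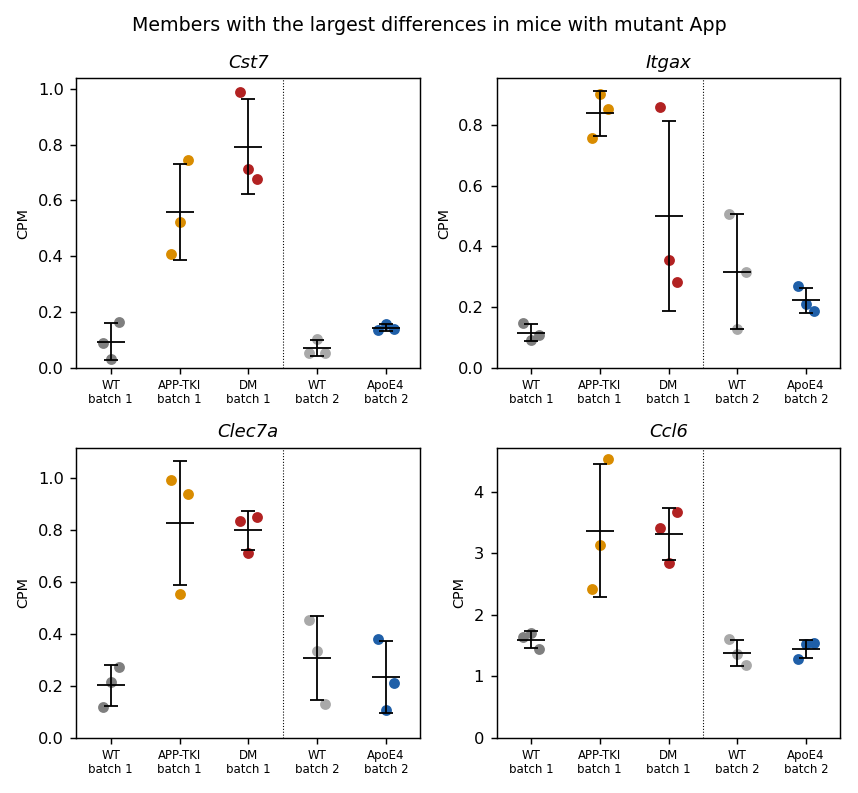
CPM of *Cst7*, *Itgax*, *Clec7a* and *Ccl6* in each of the 15 libraries, on linear axes from 0, with 1 point per library and the mean and SD of the 3 libraries of each group as bars; a dotted line parts the batches. In batch 1 the 6 points of APP-TKI and DM mice lie above the 3 WT points for each gene, and for *Itgax* the DM points are spread from 0.283 to 0.859 CPM.

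*Ccl6* (ENSMUSG00000018927, chr11:83587882-83593087), a CC chemokine of myeloid cells, had the smallest p among the 31 members past the main filter. It was at 1.64, 1.71 and 1.44 CPM in WT mice of batch 1, 2.42, 3.14 and 4.54 CPM in APP-TKI mice and 3.41, 2.85 and 3.67 CPM in DM mice. All mutant libraries were higher than all WT libraries. In batch 2 it was at 1.60, 1.36 and 1.18 CPM in WT mice and 1.28, 1.52 and 1.54 CPM in ApoE4 mice, without separation. Its log2 fold change in mice with mutant *App* was 1.07 (SE 0.21, 95% interval 0.61 to 1.52), with adjusted p = 0.39 in the quasi-likelihood test of edgeR. Only 11 of the 16171 genes had a smaller p. The robust likelihood ratio test of edgeR (adjusted p = 0.000924) and DESeq2 (adjusted p = 0.00714) called it. The transcript *E230016K23Rik*, which overlaps *Ccl6* on the opposite strand, had 0 to 6 counts per library, and the paralog *Ccl9* had 50 to 95.

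Over the 31 members past the main filter, 26 were higher and 5 were lower in mice with mutant *App*, where 56% of all genes were higher. The median log2 fold change was 0.17, against 0.011 for all 16171 genes. At an adjusted p under 0.1 the quasi-likelihood test of edgeR called 0 members, with 0.0309% of all genes called. At an unadjusted p under 0.05, 9 members were higher, where 3.20% of all genes were, and 0 were lower, where 1.14% were. In 8 of the 31 members all 6 mutant libraries were above all 3 WT libraries, which held for 1.61% of all genes. Without WT replicate 1 of batch 1, the count at an unadjusted p under 0.05 was 4 higher and 1 lower. Without APP-TKI replicate 2 the median was 0.11. The robust likelihood ratio test of edgeR called 2 members (*Ccl6* and *Lyz2*) at an adjusted p under 0.1, with 0.489% of all genes called, and DESeq2 called 1 (*Ccl6*), with 0.223% of all genes called.

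Homeostatic microglial genes had a smaller median. Of 20 such genes tested, 12 were higher and 8 lower, where 56% of all genes were higher, and the median log2 fold change was 0.060. At an unadjusted p under 0.05, 1 was higher, where 3.20% of all genes were. That gene was *Fcrls*, an Fc receptor-like gene of microglia, with a log2 fold change of 0.26 (SE 0.070, adjusted p = 0.689). Their summed level was 930 to 1090 CPM in WT mice of batch 1, 990 to 1100 CPM in APP-TKI mice and 999 to 1050 CPM in DM mice, which overlapped. The difference between both lists was not tested.

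Among receptors and their adaptors, *Trem2* and *Tyrobp* were 1.23-fold and 1.22-fold higher in mice with mutant *App*. *Trem2* (ENSMUSG00000023992, chr17:48346401-48354147) was at 9.65, 11.1 and 10.6 CPM in WT mice, 13.8, 13.3 and 12.3 CPM in APP-TKI mice and 13.9, 11.6 and 12.2 CPM in DM mice. Its lowest mutant library lay just above its highest WT library. In batch 2, ApoE4 mice (9.34, 8.48 and 8.29 CPM) overlapped WT mice (10.02, 9.24 and 8.36 CPM). The log2 fold change in mice with mutant *App* was 0.30 (SE 0.089, adjusted p = 0.854 by the quasi-likelihood test of edgeR).

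*Tyrobp* (ENSMUSG00000030579, chr7:30413760-30417585), the signalling adaptor shared by TREM2 and other receptors, was at 10.03, 11.1 and 11.6 CPM in WT mice, 12.1, 14.7 and 12.9 CPM in APP-TKI mice and 14.8, 12.7 and 12.8 CPM in DM mice. Here too the groups did not overlap. The log2 fold change was 0.29 (SE 0.093, adjusted p = 0.919). Both genes were picked from these samples by the study itself, together with *Spp1* and *Ccl6*, so that their direction here is not independent evidence.

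*Ly86*, whose product MD-1 pairs with the Toll-like receptor homologue CD180, was at 7.40, 7.85 and 7.45 CPM in WT mice, 9.25, 8.53 and 8.62 CPM in APP-TKI mice and 8.48, 10.1 and 9.15 CPM in DM mice, with no overlap. Its log2 fold change in mice with mutant *App* was 0.25 (SE 0.091, adjusted p = 1). Of the 11 receptor members tested, 9 were higher and 2 lower, with a median log2 fold change of 0.15. The other eight were *Cd180*, *Fcgr1*, *Fcgr3*, *Fcer1g*, *Tlr2*, *Cd14*, *Cd84* and *Axl*, and none had an unadjusted p under 0.05. *Axl*, a receptor of phosphatidylserine bridges on dying cells, was at 53.1 ± 1.72 CPM in APP-TKI mice and 53.1 ± 2.57 CPM in DM mice, against 55.7 ± 5.14 CPM in WT mice (SD, n = 3 each).

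**Figure D2:**
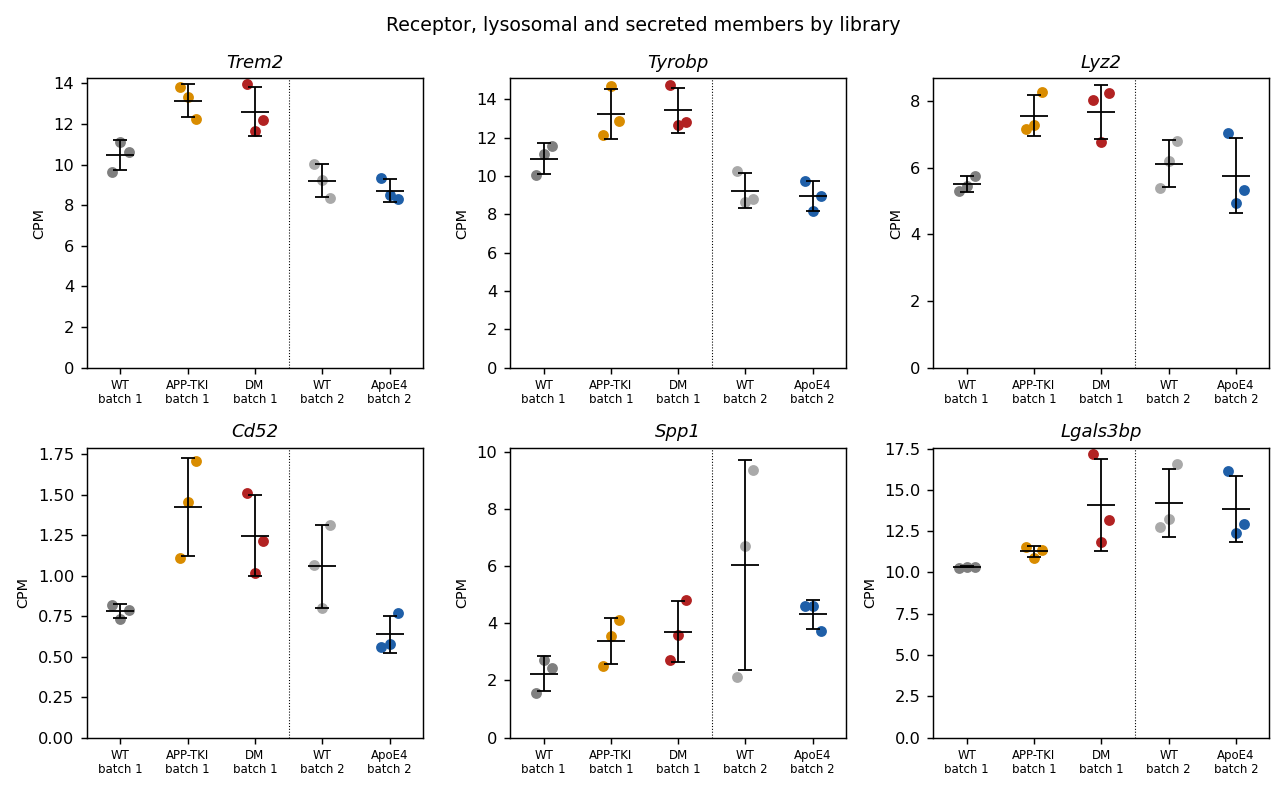
CPM of *Trem2*, *Tyrobp*, *Lyz2*, *Cd52*, *Spp1* and *Lgals3bp* in each of the 15 libraries, on linear axes from 0, with 1 point per library and the mean and SD of each group as bars; a dotted line parts the batches. *Lyz2* is at 5.30 to 5.76 CPM in WT mice of batch 1 and 6.76 to 8.26 CPM in APP-TKI and DM mice, and *Spp1* is spread from 2.11 to 9.36 CPM among the WT libraries of batch 2.

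Of the lysosomal and antigen-presenting members past the main filter, *Lyz2* had the largest log2 fold change in mice with mutant *App*. *Lyz2* (ENSMUSG00000069516, chr10:117277331-117282321) encodes the lysozyme of macrophages and was at 5.30, 5.46 and 5.76 CPM in WT mice, 7.16, 7.28 and 8.26 CPM in APP-TKI mice and 8.04, 6.76 and 8.25 CPM in DM mice. The mutant libraries were all higher. Its log2 fold change in mice with mutant *App* was 0.47 (SE 0.11, adjusted p = 0.449 by the quasi-likelihood test of edgeR), and the robust likelihood ratio test of edgeR called it (adjusted p = 0.0390). The near-identical paralog *Lyz1* had 0 to 5 counts per library.

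The other 7 tested members of this group had smaller log2 fold changes in mice with mutant *App*, though that of *Cd74* was close to that of *Lyz2*. In DM mice alone *Cd74* was at 0.57 (SE 0.27) and *Lyz2* at 0.48 (SE 0.12). *Ctss*, cathepsin S, was at 68.3 ± 2.47 CPM in APP-TKI mice, 68.1 ± 4.80 CPM in DM mice and 63.4 ± 4.78 CPM in WT mice. *Cd68*, a lysosomal membrane protein of phagocytes, was at 6.89 ± 0.614, 8.08 ± 0.602 and 6.60 ± 0.378 CPM in the same order (SD, n = 3 each). *Cd63* and *Laptm5*, membrane proteins of endosomes and lysosomes, had log2 fold changes of 0.027 and 0.079. *Cd74*, the invariant chain of MHC class II, had a log2 fold change of 0.45 in mice with mutant *App* (SE 0.24, adjusted p = 1), *Gpnmb* was at 5.48 to 5.70 CPM in DM and 4.68 to 6.58 CPM in WT mice, and *Cyba*, the partner of *Cybb* in the oxidase, had the lowest log2 fold change of all 31 (-0.11, SE 0.13).

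Among the surface and cytoskeletal members, *Cd52*, a small glycoprotein anchored to leukocyte membranes, was at 0.819, 0.733 and 0.788 CPM in WT mice, 1.11, 1.46 and 1.71 CPM in APP-TKI mice and 1.51, 1.01 and 1.21 CPM in DM mice. All mutant libraries were above WT, with a log2 fold change of 0.77 (SE 0.23, adjusted p = 0.854). *Crybg2*, which overlaps it on the opposite strand, had 28 to 39 counts in these WT libraries and 18 to 45 in the mutant ones. *Itgb2*, the β2 chain that pairs with CD11c, was at 4.83, 4.37 and 5.16 CPM in WT mice, 5.76, 5.85 and 5.40 CPM in APP-TKI mice and 6.12, 5.17 and 6.02 CPM in DM mice, with a log2 fold change of 0.25 (SE 0.11, adjusted p = 1). *Aif1*, which encodes the microglial stain IBA1, *Hcls1*, *Cd9* and *B4galt1* had log2 fold changes of 0.17, 0.20, 0.053 and 0.20.

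Of the secreted members, *Spp1*, osteopontin, was at 1.55, 2.72 and 2.45 CPM in WT mice, 2.50, 3.55 and 4.10 CPM in APP-TKI mice and 2.71, 3.59 and 4.83 CPM in DM mice. The lowest libraries of both mutant groups overlapped WT, and the log2 fold change was 0.66 (SE 0.24, adjusted p = 1). *Spp1* was at 2.11, 6.69 and 9.36 CPM in WT mice of batch 2, a spread larger than the differences between its group means in batch 1, and at 4.62, 4.62 and 3.74 CPM in ApoE4 mice. Its log2 fold change in ApoE4 mice was -0.48 (SE 0.45), and it went from -0.89 without WT replicate 1 to -0.022 without WT replicate 3, the WT library with the high choroid plexus sum. ApoE4 replicate 1, the other library with a high sum, was at 4.62 CPM, level with ApoE4 replicate 2. WT replicate 2 of that batch was at 6.69 CPM without a high sum. The part of the choroid plexus in the *Spp1* values was not tested. *Lpl*, lipoprotein lipase, *Csf1*, a growth factor of microglia, and *Timp2*, a metalloproteinase inhibitor, are made by other brain cells as well and had log2 fold changes of -0.0034, -0.018 and 0.093 in mice with mutant *App*.

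**Figure D3:**
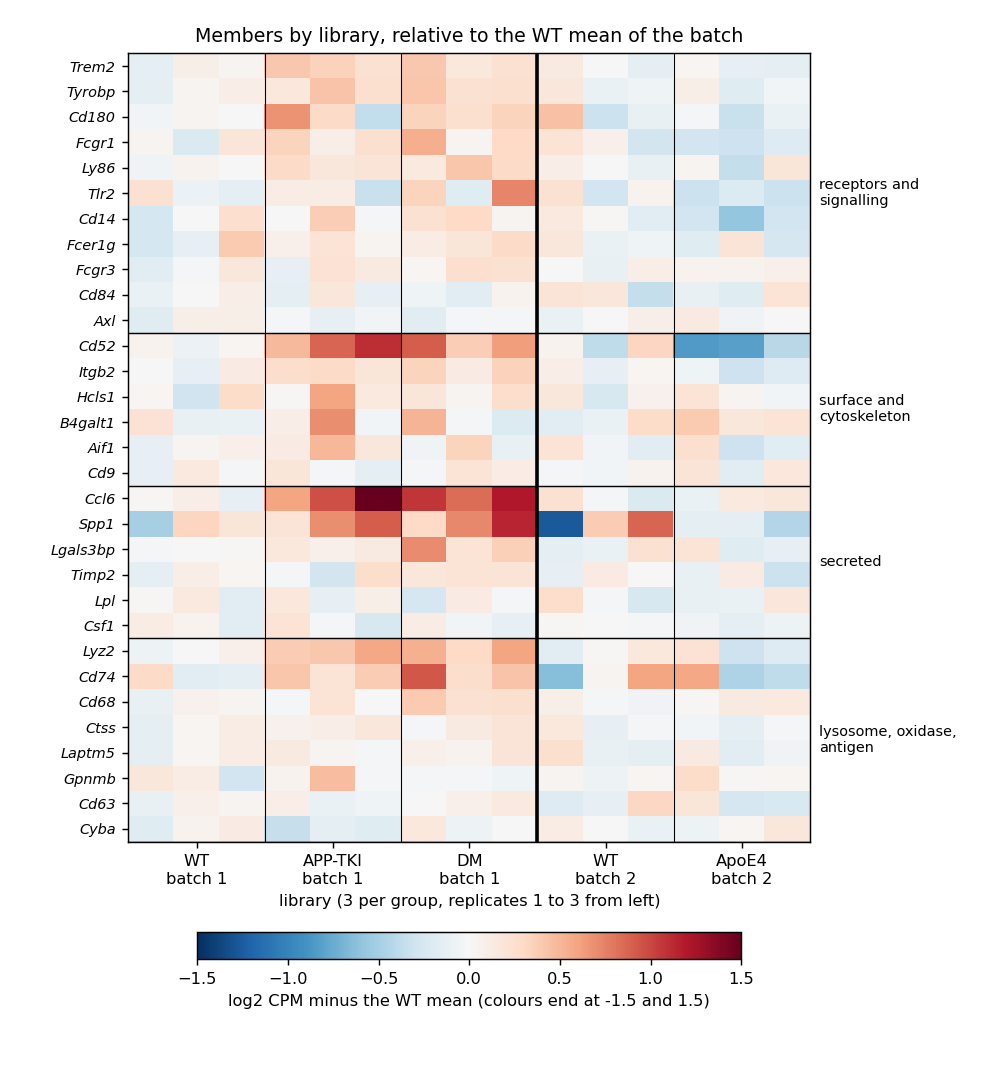
Heat map of the 31 members past the filter (rows, in groups by role and ordered by their difference in mice with mutant *App*) in the 15 libraries (columns, replicates 1 to 3 of each group), as log2 CPM minus the mean of the WT libraries of the batch; colours end at 1.5 in each direction. The median of the rows is 0.137 to 0.233 in the 6 libraries with mutant *App* and -0.165 to 0.0229 in the 3 ApoE4 libraries.

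In each mutant library of batch 1 the median of the 31 members was above the WT mean. The members were chosen with earlier results of these data known, so this is a description and was not tested. Relative to the WT mean of the batch, the median log2 difference of the 31 members was 0.137, 0.204 and 0.138 in APP-TKI libraries and 0.180, 0.184 and 0.233 in DM libraries. It was -0.0985, 0.0356 and 0.0422 in the WT libraries themselves. WT replicate 1 was the lowest of all 9.

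The next question was whether single and double mutants differ from WT in the same members. Both share the 3 WT libraries, so the values of each are given side by side. In APP-TKI mice the quasi-likelihood test of edgeR called 0 of the 31 members at an adjusted p under 0.1 (0.00618% of all genes), while 5 were higher (2.19% of all genes) and 0 lower (1.37%) at an unadjusted p under 0.05. These were *Ccl6* (log2 fold change 1.08, SE 0.23), *Lyz2* (0.46, SE 0.12), *Cd52* (0.86, SE 0.26), *Trem2* (0.33, SE 0.10) and *Tyrobp* (0.28, SE 0.11). In 9 members all APP-TKI libraries were above all WT libraries (4.65% of all genes). The median log2 fold change was 0.12, and 0.21 without WT replicate 3. By robust likelihood ratio and by DESeq2, 1 member was called in each, *Ccl6*, with 0.309% and 0.155% of all genes called.

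In DM mice the same test called 0 of the 31 (0.0124% of all genes), with 9 higher (3.69% of all genes) and 0 lower (0.866%) at an unadjusted p under 0.05. In 11 members all DM libraries were above all WT libraries (7.87% of all genes). *Ccl6* had a log2 fold change of 1.05 (SE 0.23, adjusted p = 0.384), *Lyz2* 0.48 (SE 0.12, adjusted p = 0.516), *Lgals3bp* 0.44 (SE 0.12, adjusted p = 0.548, and 0.28 without DM replicate 1), *Tyrobp* 0.30, *Ly86* 0.29, *Trem2* 0.27, *Spp1* 0.72, *Cd52* 0.67 and *Cd68* 0.29. The median was 0.18, and 0.28 without WT replicate 3. Without WT replicate 1 or without DM replicate 1 the 9 became 5. The robust likelihood ratio test of edgeR called *Ccl6* and *Lyz2* (0.841% of all genes) and DESeq2 called *Ccl6* (0.309%).

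With filterByExpr, 0 of 36 members were called at an adjusted p under 0.1 in APP-TKI mice (0.00513% of all genes) and 0 in DM mice (0.0103%), by the quasi-likelihood test of edgeR. At an unadjusted p under 0.05, 8 were higher in APP-TKI mice (1.99% of all genes) and 13 in DM mice (3.43%). *Cst7*, *Itgax* and *Clec7a* are in both counts and entered this set only through the mutant libraries, so nothing is read from the counts. *Cst7* had a log2 fold change of 2.49 (SE 0.51, adjusted p = 0.340) in APP-TKI mice and 2.99 (SE 0.49, adjusted p = 0.108) in DM mice. *Itgax* had 2.81 (SE 0.49, adjusted p = 0.254) and 2.08 (SE 0.51, adjusted p = 0.459), and without DM replicate 1 the latter was 1.44. *Clec7a* had 2.00 (SE 0.39, adjusted p = 0.299) and 1.95 (SE 0.39, adjusted p = 0.255). With the replicate number as a block, *Itgax* was called in APP-TKI mice (adjusted p = 0.0804 by edgeR, 0.0513% of all genes called) and *Cst7* in DM mice (0.0591, 0.0872% of all genes). The robust likelihood ratio test of edgeR called these 3 and *Ccl6* in APP-TKI mice (0.267% of all genes) and the same with *Lyz2* in DM mice (0.764%). DESeq2 called the 4 in APP-TKI mice (0.133% of all genes) and all but *Itgax* in DM mice (0.287%).

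The direct comparison of DM with APP-TKI mice asks what 1 *APOE4* allele adds to mutant *App*. The quasi-likelihood test called 0 of the 31 members (0% of all genes), 1 was higher (2.83% of all genes) and 0 were lower (0.946%) at an unadjusted p under 0.05, and DESeq2 (0.111% of all genes) and the robust likelihood ratio test (0.328%) also called 0. The median log2 difference was 0.045. The member that was higher was *Lgals3bp*, a secreted galectin-binding glycoprotein also induced by interferon. It was at 10.3, 10.3 and 10.4 CPM in WT mice, 11.6, 10.9 and 11.4 CPM in APP-TKI mice and 17.2, 11.8 and 13.2 CPM in DM mice. All DM libraries were above all APP-TKI libraries, with DM replicate 1 far above the others, and the log2 difference was 0.32 (SE 0.12, 95% interval 0.055 to 0.58, adjusted p = 0.987). Without DM replicate 1 it was 0.16.

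For the leading members the interval of this difference was wide. The log2 difference between DM and APP-TKI mice was -0.028 for *Ccl6* (95% interval -0.51 to 0.45), -0.061 for *Trem2* (-0.28 to 0.16), 0.020 for *Tyrobp* (-0.21 to 0.25) and 0.13 for *Spp1* (-0.45 to 0.71). With filterByExpr it was 0.50 for *Cst7* (SE 0.38), -0.73 for *Itgax* (SE 0.39) and -0.048 for *Clec7a* (SE 0.33), with adjusted p of 0.997 to 0.999. For *Ccl6* the interval does not reach the 1.05 by which DM mice were above WT, and for *Cst7* and *Itgax* it was wider still.

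**Figure D4:**
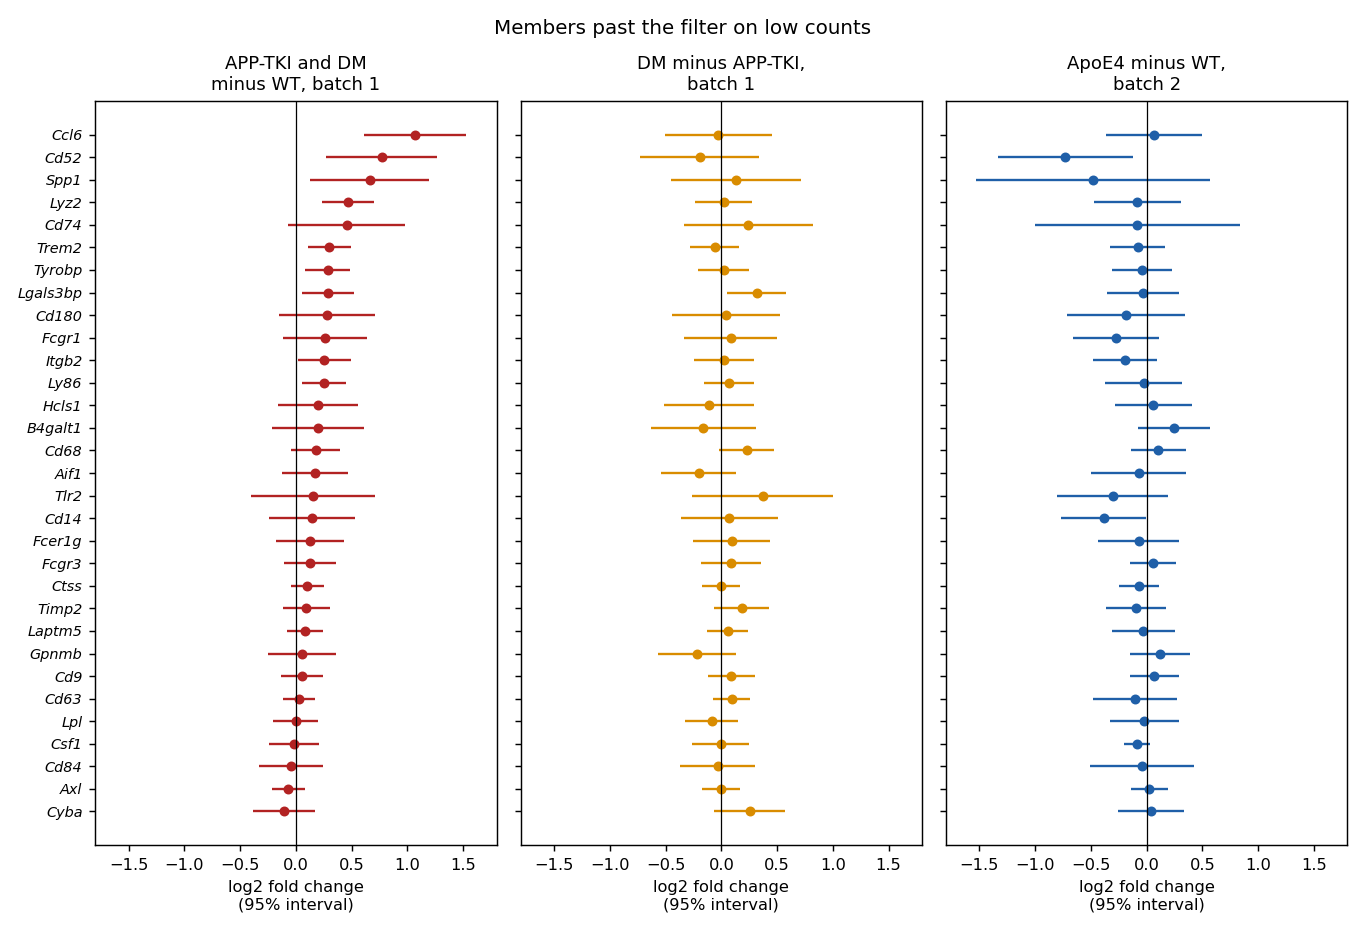
Log2 fold change (points) and 95% interval (lines) of the 31 members in 3 comparisons: APP-TKI and DM together minus WT, DM minus APP-TKI, and ApoE4 minus WT of batch 2; genes are ordered by the first. Intervals of 9 members lie wholly above 0 in the first panel, 1 does in the second, and in the third those of *Cd52* and *Cd14* lie wholly below 0.

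The effect of *APOE4* without mutant *App* was measured in batch 2, and here most members were level with WT or slightly lower. The quasi-likelihood test of edgeR called 0 of the 31 members at an adjusted p under 0.1 (0% of all genes), with 0 higher (3.23% of all genes) and 2 lower (2.76%) at an unadjusted p under 0.05. In 0 members were all ApoE4 libraries above all WT libraries (5.51% of all genes), and in 3 they were all below (6.60%). In the other direction from the *App* mutants, 9 members were higher and 22 lower, where 45.9% of all genes were higher. The median log2 fold change was -0.070, and it turned to 0.017 without WT replicate 1 and 0.023 without ApoE4 replicate 2. DESeq2 called 0 members (0.297% of all genes), with 0 lower at an unadjusted p under 0.05, and the robust likelihood ratio test called 0 (0.773%).

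*Cd52* was at 1.07, 0.798 and 1.31 CPM in WT mice and 0.560, 0.578 and 0.771 CPM in ApoE4 mice, which did not overlap (log2 fold change -0.73, SE 0.26, adjusted p = 0.761). *Cd14*, the coreceptor for lipopolysaccharide, was at 2.43, 2.24 and 1.97 CPM in WT mice and 1.79, 1.47 and 1.80 CPM in ApoE4 mice (log2 fold change -0.39, SE 0.16, adjusted p = 0.761). *Csf1*, the third member without overlap, was at 27.5, 27.4 and 27.1 CPM against 26.3, 25.0 and 26.0 CPM, a log2 difference of -0.086 between WT libraries that were almost equal and ApoE4 libraries just below them. *Trem2* (-0.080, SE 0.11) and *Tyrobp* (-0.044, SE 0.12) were within the spread of the libraries.

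Set against each other over all 15 libraries, the effects of *APOE4* with mutant *App* (DM minus APP-TKI) and without (ApoE4 minus WT) did not differ for any member past the threshold. The quasi-likelihood test of edgeR called 0 of 31 (0% of all genes), with 0 higher (4.06%) and 0 lower (2.79%) at an unadjusted p under 0.05, and the robust likelihood ratio test (0.748% of all genes) and DESeq2 (0.161%) called 0 too. The members with the smallest p-values had differences of 0.68 for *Tlr2* (SE 0.37, adjusted p = 0.734), 0.35 for *Lgals3bp* (SE 0.19, adjusted p = 0.735) and 0.46 for *Cd14* (SE 0.26, adjusted p = 0.744), on the log2 scale. *Tlr2* passed the filter only with libraries of DM mice. The difference was 0.61 for *Spp1* (SE 0.55, adjusted p = 0.826), 0.54 for *Cd52* (SE 0.35, adjusted p = 0.770) and -0.094 for *Ccl6*.

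Other genes of the pathway were described by lists. Of all genes, 56% were higher in mice with mutant *App*. At an unadjusted p under 0.05, 3.20% of all genes were higher in these mice and 3.69% in DM mice. Of 21 further genes of disease-associated microglia that were tested, 17 were higher in mice with mutant *App*, with a median log2 fold change of 0.069 and 2 at an unadjusted p under 0.05. These were the lysosomal proteases *Ctsz*, cathepsin Z (log2 fold change 0.27, SE 0.068, adjusted p = 0.627), and *Ctsd*, cathepsin D (0.16, SE 0.050, adjusted p = 0.919). In DM mice 5 of the 21 were higher at that level, with *Ctsz* at 0.32 (SE 0.078, adjusted p = 0.466) and *Ctsd* at 0.22 (SE 0.058, adjusted p = 0.516). Of 19 genes of TREM2 signalling downstream of TYROBP, 17 were higher, with a median of 0.13 and 1 at an unadjusted p under 0.05, *Plek* (0.18, SE 0.069). Of 6 further oxidase and MHC class II genes, 6 were higher, with a median of 0.20 and 1 at an unadjusted p under 0.05, *H2-Aa*, an MHC class II chain (0.93, SE 0.42, adjusted p = 1). The quasi-likelihood test called none of these at an adjusted p under 0.1. Nothing is read from counts of 1 gene at an unadjusted p under 0.05.

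**Figure D5:**
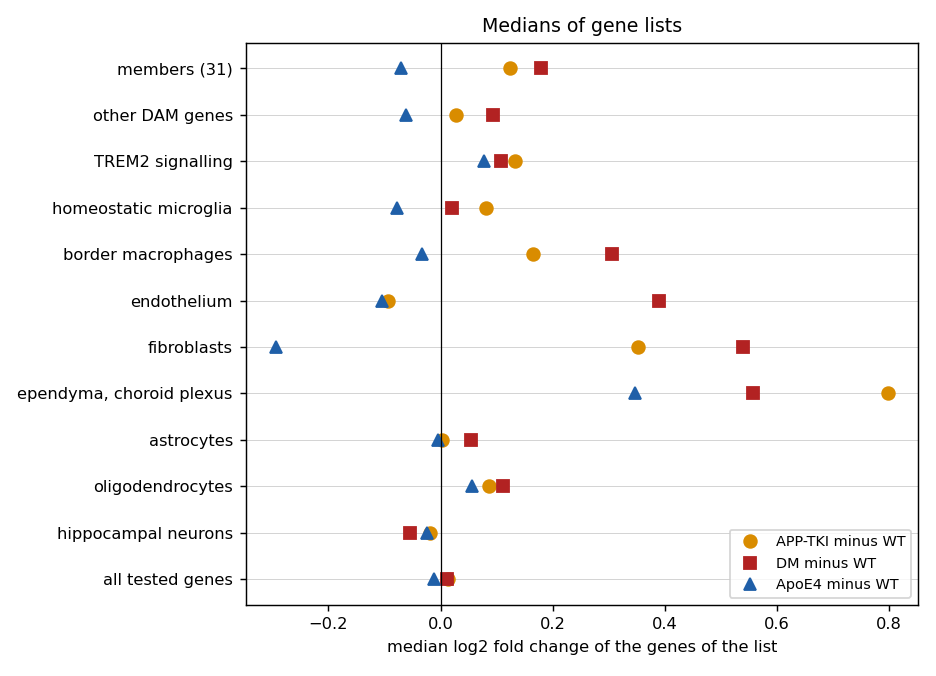
Median log2 fold change of the tested genes of each list (rows) in APP-TKI minus WT, DM minus WT and ApoE4 minus WT; points are medians with no error bar, and all tested genes are the last row. The members stand at 0.12, 0.18 and -0.070, and the fibroblast list at 0.35 and 0.54 in APP-TKI and DM mice.

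Markers of other cells also differed between these libraries. Of 12 endothelial markers, 12 were higher in DM mice than in WT mice (54.9% of all genes), with a median log2 fold change of 0.39. Of these, 7 were higher at an unadjusted p under 0.05 (3.69% of all genes). In APP-TKI mice 1 of the 12 was higher (55.5% of all genes), with a median of -0.093. Their summed level was 69.8 to 76.1 CPM in WT, 62.3 to 71.9 CPM in APP-TKI and 85.2 to 111 CPM in DM libraries. Fibroblast markers (10 tested) had a median of 0.35 in APP-TKI and 0.54 in DM mice, and the summed level of all 12 was 133 to 165, 128 to 186 and 170 to 186 CPM in WT, APP-TKI and DM mice. Ependymal and choroid plexus markers (11 tested) had medians of 0.80 and 0.56, with sums that overlapped (35.2 to 71.2, 42.1 to 95.1 and 50.6 to 78.1 CPM). The part of these cells in the members' values was not tested.

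Macrophages of the brain borders share many members with microglia. Of 6 such markers tested, 5 were higher in mice with mutant *App*, where 56% of all genes were. Their median log2 fold change was 0.25, above the 0.17 of the 31 members. It was 0.16 in APP-TKI and 0.31 in DM mice, against 0.12 and 0.18 for the members. At an unadjusted p under 0.05, 0 were higher in mice with mutant *App*, where 3.20% of all genes were. In DM mice 1 was, *Mrc1*, where 3.69% of all genes were. The part of these macrophages in the members' values was not tested. The summed level of 12 was 47.0 to 50.7 CPM in WT, 45.7 to 51.6 CPM in APP-TKI and 47.5 to 54.6 CPM in DM mice. *Mrc1* had 81 to 219 counts over all libraries. Its log2 fold change was 0.31 (SE 0.16) in mice with mutant *App* and 0.45 (SE 0.18) in DM mice. Infiltrating monocytes and neutrophils were at the limit of detection, with 0 to 9 counts of *Ccr2*, 0 to 2 of *Ly6c2*, 0 to 4 of *S100a8* and 0 to 9 of *S100a9* per library. The summed level of these 12 markers was 1.01 to 1.82 CPM in WT, 1.79 to 2.33 CPM in APP-TKI and 1.35 to 1.94 CPM in DM mice, and *Mmp9* was the only one that passed the filter. *Mmp9*, a matrix metalloproteinase, had a log2 fold change of 0.59 in APP-TKI mice (SE 0.27, adjusted p = 1, unadjusted p under 0.05) and 0.25 in DM mice (SE 0.27). The summed level of 10 lymphocyte markers was below 1 CPM in every library. *Cst7* and *Itgax* are also genes of lymphocytes and dendritic cells, and the part of such cells was not tested beyond these sums.

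Levels among the members spanned a wide range. Per kilobase of exon and averaged over the 15 libraries, *Timp2* (66.3 CPM per kilobase), *Ctss* (47.0) and *Cd9* (18.7) were the most abundant, followed by *Tyrobp* (16.7), while *Trem2* was at 2.19, *Ccl6* at 1.24, *Cst7* at 0.336, *Clec7a* at 0.179 and *Itgax* at 0.0829. The members with the largest fold differences were thus among the least abundant. The chemokines *Ccl3* (0.255), *Ccl4* (0.166) and *Ccl2* (0.0604) were as low. *Ccl3* was at 0.312, 0.274 and 0.283 CPM in DM mice, above WT mice (0.0585, 0.153 and 0.109 CPM), and *Ccl4* at 0.416, 0.274 and 0.113 CPM against 0.0585, 0.0305 and 0.109 CPM. The *Ccl3* values of DM mice rest on 12, 10 and 10 counts. In APP-TKI mice *Ccl3* (0.233, 0.146 and 0.0826 CPM) overlapped WT. In ApoE4 mice it was at 0.381, 0.158 and 0.304 CPM and overlapped WT mice of batch 2 (0.0533, 0.206 and 0.184 CPM). *Ccl2* had at most 0.244 CPM and was at 0 in 1 DM and 1 ApoE4 library. *Lgals3*, galectin-3, was at 0.807, 0.766 and 0.848 CPM in DM mice, above WT mice (0.527, 0.366 and 0.353 CPM), and at 0.931, 0.349 and 0.441 CPM in APP-TKI mice, which overlapped WT.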

How the data were processed

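The 15 libraries hold bulk RNA of the hippocampus. The authors deposited unnormalized counts of reads for each gene, obtained with Trimmomatic 0.39, STAR 2.7.1a (mouse genome with human *APOE* RNA added) and HTSeq 0.11.2. Which strand HTSeq counted is not stated in these sources, and overlapping genes are therefore uncertain. All further steps used R 4.3.3, edgeR 4.0.16, DESeq2 1.42.0 and Python 3.11.15. IDs were matched to GENCODE M21 of GRCm38. Genes over 1 CPM in at least 3 libraries were scaled with upper quartile factors. Separate models for batch 1 and batch 2, and 1 model of all libraries for the difference of *APOE4* effects, were tested by quasi-likelihood in edgeR, with Benjamini-Hochberg adjustment over all tested genes and a threshold of 0.1. The test was checked on simulated counts. The study counts its replicates in mice.

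The members and lists were chosen with earlier results of these data known. Members with the 6 smallest p-values of a comparison, with *Trem2*, *Tyrobp*, *Spp1* and *Ccl6*, were taken for full statistics, and the 3 smallest of each other list were eligible. Genes below the filter were chosen for description after their values were seen. Deviations of same-numbered WT and DM libraries from their group means correlated at 0.446, 0.194 and 0.300. For other pairs of groups the correlations were -0.32 to 0.229. Libraries of unlike number were not correlated, so whether the numbers pair the samples was not tested. Alternatives were other tests, scalings, filters, libraries in the fit, a replicate block and each library left out. Replicates of each group differed by more than sampling noise.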

Additional observations from a re-analysis of the deposited data

How the results depend on the processing

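In the main fit the quasi-likelihood test called 0 members at an adjusted p under 0.1 in every comparison. It also called 0 with TMM and median-of-ratios scaling, robust quasi-likelihood dispersions, filterByExpr, a threshold of 0.05, the replicate block alone and each library left out. The number of members called depended on the test, and within the quasi-likelihood test on the filter and the groups in the fit. In mice with mutant *App*, in APP-TKI mice and in DM mice it was 2, 1 and 2 with the robust likelihood ratio test, 1, 1 and 1 with DESeq2, 5, 4 and 5 without a filter, 5, 4 and 5 with filterByExpr and the robust likelihood ratio test, 4, 4 and 3 with filterByExpr and DESeq2, and 1, 1 and 1 with filterByExpr and the replicate block. Of all genes, 79, 50 and 136 were called with the robust likelihood ratio test, 36, 25 and 50 with DESeq2, 116, 83 and 179 without a filter, 93, 52 and 149 with filterByExpr and the robust likelihood ratio test, 39, 26 and 56 with filterByExpr and DESeq2, and 13, 10 and 17 with filterByExpr and the block. The combined settings were chosen after seeing the data. The calls with filterByExpr include *Cst7*, *Itgax* or *Clec7a*, which passed this filter only through the mutant libraries. The calls of these genes are therefore a description and no support for a difference. With 2 groups in the fit the quasi-likelihood test called 1 member in DM mice, with 30 of all genes called. The block otherwise changed no call of a member.

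At an unadjusted p under 0.05, members higher in APP-TKI mice went from 5 to 8 or 9 (no filter and filterByExpr with any test or the block) and in DM mice from 9 to 15 without a filter and 14 with filterByExpr and the robust likelihood ratio test. *Cst7*, *Itgax* and *Clec7a* passed filterByExpr only through the mutant libraries, so nothing is read from these rises. With filterByExpr alone, 1.99% and 3.43% of all genes were higher in APP-TKI and DM mice. Such shares were not computed for the other settings of this paragraph. In DM against APP-TKI mice 2 were higher with the robust likelihood ratio test, with filterByExpr or not, and with 15 libraries in the fit, 3 without a filter, and 1 was lower with filterByExpr and that test. In ApoE4 mice the 2 lower members became 1 with TMM, median-of-ratios, no filter, filterByExpr, robust dispersions, 15 libraries or the replicate block, and 0 with DESeq2. In the difference of *APOE4* effects, 1 was higher with the robust likelihood ratio test, and 2 higher and 1 lower without a filter. The log2 difference of *Ccl6* between DM and APP-TKI mice turned to 0.059 with the robust likelihood ratio test and 0.067 with filterByExpr added.

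With 1 library left out, the median log2 fold change of the members was 0.11 to 0.21 in mice with mutant *App*, 0.11 to 0.21 in APP-TKI mice, 0.15 to 0.28 in DM mice, 0.014 to 0.057 for DM minus APP-TKI, -0.10 to 0.023 in ApoE4 mice and 0.033 to 0.13 for the difference of *APOE4* effects. Members higher at an unadjusted p under 0.05 numbered 4 to 10, 4 to 6, 5 to 11, 0 to 2, 0 to 1 and 0 to 2 in the same order, and members lower 0 to 1, 0 to 0, 0 to 0, 0 to 1, 0 to 2 and 0 to 1. The share of all genes at this level was not computed for these fits, so the numbers are a description. Values near 0 changed sign in comparisons without a called member. For DM minus APP-TKI these were *Ccl6* (-0.2185 to 0.2516), *Spp1* (-0.112 to 0.3191) and *Tyrobp* (-0.0455 to 0.0996). In ApoE4 mice they were *Ccl6* (-0.0353 to 0.1904) and *Tyrobp* (-0.1124 to 0.0438). In the difference they were *Ccl6* (-0.2847 to 0.1851), *Trem2* (-0.0526 to 0.0841) and *Tyrobp* (-0.0245 to 0.1431). With filterByExpr, which *Cst7*, *Itgax* and *Clec7a* pass only through the mutant libraries, *Cst7* stayed at 2.36 to 3.41, *Itgax* at 2.13 to 2.63 and *Clec7a* at 1.70 to 2.28 in mice with mutant *App*. There *Clec7a* was called without APP-TKI replicate 2 (adjusted p = 0.0849 by edgeR), *Cst7* in DM mice without APP-TKI replicate 2 or 3 (0.0664 and 0.0801) and *Itgax* in APP-TKI mice without DM replicate 1 (0.0490).

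With 3 libraries a group, differences near the size of that of *Trem2* were near the limit of the spread, and at these depths *Cst7*, *Itgax* and *Clec7a* rest on at most 38 counts a library. Dependence of the calls on the test, the filter and the groups in the fit was not traced to a cause.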
